A study of Drosophila melanogaster with 24 samples.

Results

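The 10 genes described here belong to the piRNA pathway, which defends the animal germline against transposons. They were chosen by name (aub, AGO3, piwi, rhi, zuc, armi, vret, spn-E, krimp and mael), and all 10 were found among the 13234 genes of the authors' deposited table. The study profiled poly-A RNA of fat body, the insect organ of fat storage and yolk protein synthesis, from w1118 virgin Drosophila melanogaster females aged 25 days. There were 24 libraries in 4 groups of 6, each library from 25 flies. The groups were 11 °C with S-methoprene (a juvenile hormone analogue), 11 °C with ethanol, 25 °C with S-methoprene and 25 °C with ethanol. All flies were reared at 25 °C and were w1118, and ethanol was the vehicle in every group. Flies entered dissection only when the ovaries looked right for their group: regressed with ethanol at 11 °C, large in the other groups. The group at 11 °C with ethanol therefore differs from the others in ovary state. Selection, temperature and treatment cannot be told apart as the source of that difference.

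PIWI proteins are Argonaute-family proteins that carry short guide RNAs, the piRNAs, and use them to find transposon transcripts. In flies, piRNA precursors are transcribed from clusters of transposon fragments, exported to perinuclear granules called nuage, cut and trimmed into piRNAs, and loaded onto Piwi, Aubergine or Argonaute 3. Piwi then acts on chromatin in the nucleus, while Aubergine and Argonaute 3 slice transcripts in the cytoplasm and amplify piRNAs in the ping-pong cycle. Most of what is known comes from germ cells and the follicle cells around them, and piRNA activity has also been described in adult fat body.

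The authors' deposited table gives 1 comparison and no value per library. Each gene has a mean over libraries, a log2 fold change with its standard error (SE), and p-values before and after adjustment. It names neither the factor compared nor the direction. No side was therefore tied to a temperature or to the hormone. A gene is called positive or negative, by the sign of its fold change, where the authors' adjusted p is under 0.05, and a negative one was higher on the negative side of the comparison. Intervals are 95% normal intervals from the deposited SE. The depth of each library is unknown.

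Across the 10 genes, the authors' deposited table called 0 positive and 5 negative: AGO3, zuc, vret, krimp and armi. At an unadjusted p under 0.05 from DESeq2, the tool the authors name, the counts were 0 positive and 6 negative. Over all 11399 genes with an adjusted p, 27.0% were called positive and 22.0% negative, 49.0% in either direction. Among the 2641 tested genes whose deposited mean lay in the range of these 10, 28.7% were called positive and 24.3% negative, 53.0% in all. The share called in either direction, 5 of 10, was thus near the background, while all 5 were negative. Fold changes were below 0 for 9 of the 10, with mael the exception. The median log2 fold change of the 10 was -0.99 in the authors' deposited table, against 0.07 for all genes tested. The set was chosen with earlier results of these data known, so these counts are a description.

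**Figure D1:**
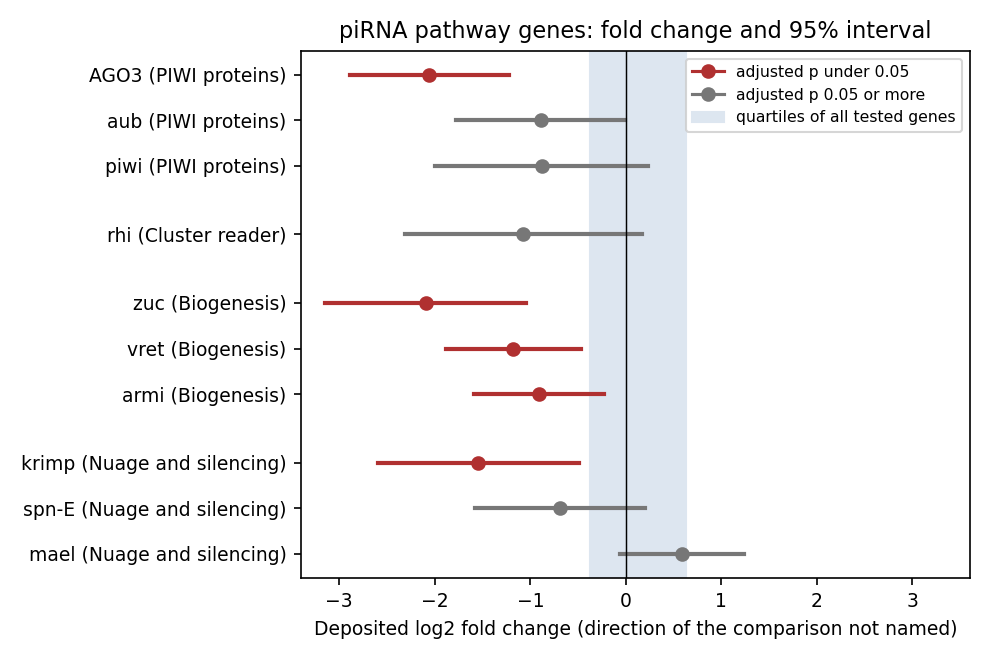
Log2 fold change in the authors' deposited table (x axis; direction of the comparison not named) of the 10 piRNA pathway genes (y axis, by role), with 95% intervals from the deposited SE. The band spans the lower to the upper quartile of all tested genes; 9 genes lie left of 0, 6 intervals lie wholly below 0, and mael alone lies right of 0.

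Of the 3 genes for PIWI proteins, only AGO3 passed the threshold. AGO3 encodes the partner of Aubergine in the ping-pong cycle. Its log2 fold change in the authors' deposited table was -2.06 (SE 0.43, interval -2.89 to -1.22, adjusted p = 8.17e-06), or 4.16-fold higher on the negative side. Only 1.97% of all tested genes had a lower fold change. The gene aub, whose product slices transposon transcripts in nuage, stood at -0.89 (SE 0.45, interval -1.77 to -0.01) in the authors' deposited table. Its unadjusted p was 0.0466 and its adjusted p 0.0862, so it missed the threshold. The gene piwi, which encodes the nuclear PIWI protein and is used in germ cells and in somatic follicle cells, stood at -0.88 (SE 0.57, interval -1.999 to 0.23, adjusted p = 0.190) in the authors' deposited table. The intervals of all 3 overlap, and a difference between them was not tested, because the covariance of fold changes cannot be had from the table.

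The genes aub and piwi, with nearly equal fold changes, are close neighbours on 2L. In the Ensembl annotation of BDGP6, whose coordinates are those of the authors' build dm6, piwi (FBgn0004872) spans 2L from 10982205 to 10987420 and aub (FBgn0000146) from 10997819 to 11001476, both on the minus strand. They are 10398 bp apart, with 1 annotated gene wholly between them, CG12253, which stood at -1.14 (SE 0.30, adjusted p = 0.00059) in the authors' deposited table, on the same side as its neighbours. Elsewhere, mael (FBgn0016034) lies on 3L from 22721203 to 22726234, spn-E (FBgn0003483) on 3R from 15837419 to 15844415, krimp (FBgn0034098) on 2R from 16238103 to 16240722 and rhi (FBgn0004400) on 2R from 17628491 to 17633516.

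AGO3 (FBgn0250816) has the longest span of the 10 genes. It covers 135048 bp of 3L, from 23554593 to 23689640, of which 2.36% is exonic. The annotation places 106 transposon insertions within this span, and 1 of them, an INE-1 copy, touches an exon, over 166 bp. Of the other 9 genes, piwi and mael hold 3 insertions each, in introns. The authors' deposited table has 0 rows named as transposon insertions, so the targets of the pathway were not analysed here.

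Rhino, the product of rhi, is a chromatin reader of the HP1 family that marks piRNA clusters for transcription from both strands. In the authors' deposited table rhi stood at -1.07 (SE 0.63, interval -2.31 to 0.17, adjusted p = 0.150), the widest interval of the 10. With that SE, a log2 fold change would have to reach 1.24 in size for an unadjusted p of 0.05, so an estimated 2-fold difference in rhi could not have been called.

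All 3 biogenesis genes among the 10 were called negative, against 22.0% of all tested genes. Of 11 other biogenesis genes, described below, 4 were called negative and 1 positive. Zucchini, encoded by zuc, is the mitochondrial endonuclease that cuts piRNA precursors. Its gene had the lowest fold change of the 10, -2.09 (SE 0.54, interval -3.14 to -1.04, adjusted p = 0.000367) in the authors' deposited table, which is 4.27-fold higher on the negative side. Vreteno, encoded by vret, is a Tudor-domain protein needed for primary piRNA production. It stood at -1.18 (SE 0.36, interval -1.88 to -0.47, adjusted p = 0.00324) in the authors' deposited table. Armitage, encoded by armi, is an RNA helicase that brings precursors to the mitochondrial surface. It stood at -0.91 (SE 0.35, interval -1.59 to -0.23, adjusted p = 0.0214) in the authors' deposited table, a 1.88-fold difference.

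Of the 3 genes of nuage and of silencing among the 10, 1 was called, against 49.0% of all tested genes in either direction. Krimper, a Tudor-domain protein encoded by krimp that holds Aubergine and Argonaute 3 together, was called at -1.54 (SE 0.54, interval -2.60 to -0.49, adjusted p = 0.0107) in the authors' deposited table. The helicase gene spn-E, a ping-pong factor, stood at -0.69 (SE 0.45, interval -1.58 to 0.20, adjusted p = 0.198) in the authors' deposited table. The gene mael, whose product acts in nuage and in nuclear silencing downstream of Piwi, stood at 0.58 (SE 0.33, interval -0.07 to 1.23, adjusted p = 0.133) in the authors' deposited table. Among all tested genes, 73.5% had a lower fold change than mael. Of the 45 pairs among the 10 genes, 5 had intervals that did not overlap, and each of these set mael against one of the 5 called genes. The share of such pairs over all tested genes was not computed, so this count is a description.

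The deposited means of the 10 genes ran between 8.73 normalised counts for zuc and 73.1 for armi, with a median of 30.2 against 49.97 over all 13234 genes. Only armi and piwi, at 59.3, were above that median. Per kilobase of the longest annotated transcript, mael was the most abundant at 21.4, followed by piwi at 19.3, armi at 17.6 and AGO3 at 16.5. In the middle of the order stood aub at 12.7, krimp at 9.58 and zuc at 7.61 per kb. The lowest were rhi at 6.36, spn-E at 4.88 and vret at 4.75 per kb. All 10 lay between percentiles 23.2 and 39.6 of the tested genes on this per-length scale. The called genes were spread over the order, from armi near the top to vret at the bottom. This is an order of means over libraries, and whether all of these libraries entered the comparison is not stated. The means can be split by side only if the sides are of equal size and together hold every library in the mean. The deposited fold changes would then put mael first on the positive side, at 25.7 per kb. On the negative side mael, at 17.2, would stand behind AGO3 at 26.6, piwi at 25.0 and armi at 23.0 per kb. AGO3 would stand at 6.40 per kb on the positive side. The means carry no error, so whether neighbours in this order differ beyond their spread was not tested.

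**Figure D2:**
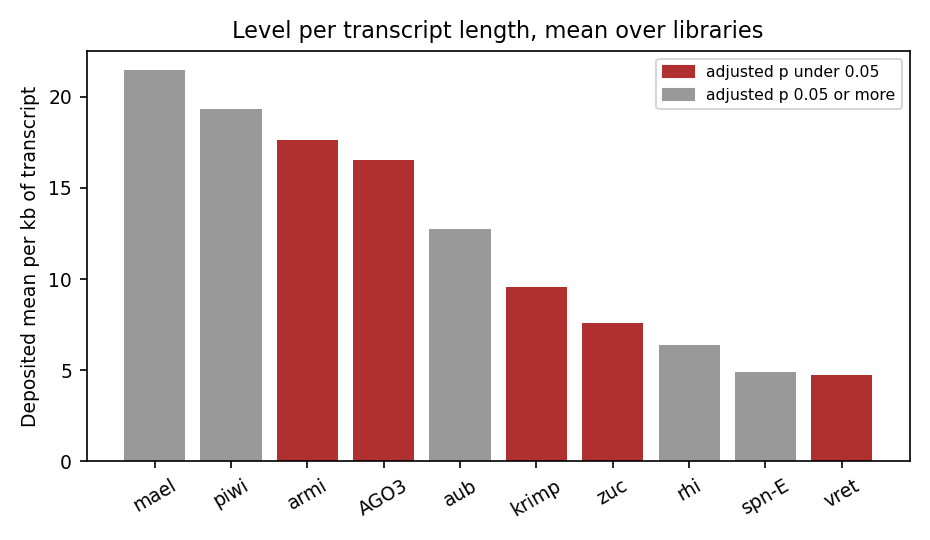
Deposited mean of normalised counts over libraries per kb of the longest annotated transcript (y axis). The 10 piRNA pathway genes are ordered from high to low (x axis), without a split by side of the comparison. No error is given for a mean. Bars of genes with an adjusted p under 0.05 stand throughout the order, which runs from mael at 21.4 to vret at 4.75.

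Fat body genes set the scale of these levels. The lipoprotein gene apolpp had a deposited mean of 1595 per kb and the fatty acid synthase gene FASN1 one of 2224 per kb, so these markers of the labelled tissue were abundant. Of the 12 fat body markers measured, the deposited means ran between 3.38 for Fbp1 and 53598 for Yp2. Of these, 1 was called positive and 6 negative, against 27.0% and 22.0% of all tested genes, and 5 were not called. The yolk protein genes Yp1, Yp2 and Yp3 stood at -3.05 (SE 0.36), -2.94 (SE 0.36) and -2.10 (SE 0.29) in the authors' deposited table. These lie on the same side as most of the piRNA genes. The positive one was srp, at 0.79 (SE 0.11).

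The deposited SEs of the 10 genes were large for their level. For each gene the deposited SE was set beside those of the tested genes whose mean lay within 1.5-fold of its own, 739 to 1634 genes. The SE of all 10 was above the median SE of these genes, and for 9 of the 10 it was above their 85th percentile, with vret at percentile 64.3 the exception. The excess was greatest for piwi, whose SE was 3.61 times the median of genes of like mean and lay at percentile 97.0. It was 2.46 times for AGO3, 2.35 for armi, 2.24 for krimp and for aub, 1.89 for rhi, 1.86 for mael, 1.82 for spn-E, 1.52 for zuc and 1.11 for vret. The SE was not used to choose these genes, and no test was made of the excess.

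The SEs were also larger than counting error alone would give. If a deposited mean is read as reads and the 24 libraries are split evenly, 12 a side, counting alone would give piwi an SE of 0.0801, and the deposited one was 7.11 times as large. The ratio was 4.82 for armi, 4.36 for aub and 4.01 for AGO3, and lowest for zuc at 2.11 and vret at 1.87. An SE above counting error is not particular to these genes. For genes of the miRNA and siRNA pathways, described below, the ratio was 6.03 for Dcr-2, 5.36 for gw, 2.37 for loqs and 1.77 for r2d2. The ratio over all tested genes was not computed. A fit on fewer libraries would have a larger counting error and lower ratios. Of the 5 called genes, armi had the highest mean and zuc the lowest.

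**Figure D3:**
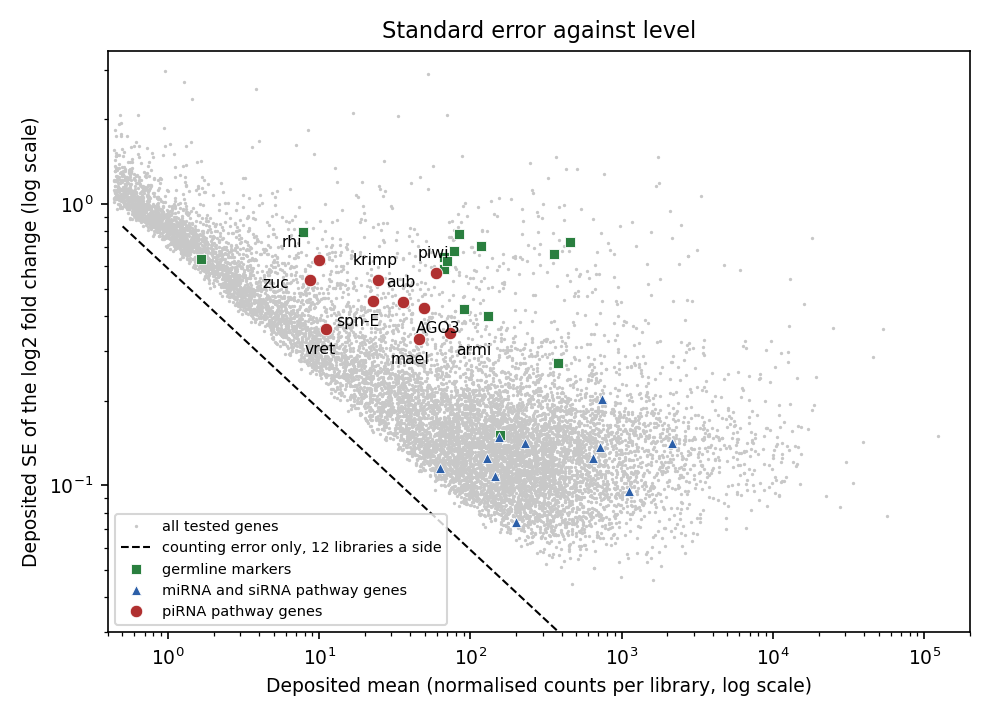
Deposited SE of the log2 fold change (y axis, log scale) against deposited mean in normalised counts (x axis, log scale) for all tested genes, the 10 piRNA pathway genes (circles), germline markers (squares) and miRNA and siRNA pathway genes (triangles). The dashed line is the SE that counting alone gives with 12 libraries a side and equal levels; all 10 piRNA genes and 13 of the 14 germline markers lie above the median SE of genes of like mean, and 5 of the 11 miRNA and siRNA pathway genes do.

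Germline markers lay mostly on the negative side too, also with large SEs. Of 14 measured, the authors' deposited table called 1 positive, bgcn, at a mean of 1.66, and 8 negative, against 27.0% and 22.0% of all tested genes. The median log2 fold change of the 14 was -1.50. With fold changes centred by length and mean, 13 germline markers were tested, and 0 were called positive and 9 negative. This centring subtracts the median of genes of like transcript length and mean. The counts were 0 and 6 with a t distribution, and 1 and 6 with adjustment over all genes with a p-value. Centring on the median gene also gave 1 and 6. Among the negative calls, otu and zpg passed narrowly, at DESeq2 adjusted p of 0.0499 and 0.0498. The germ plasm gene pgc stood at -2.54 (SE 0.63) in the authors' deposited table, exu, which localises maternal RNA, at -1.47 (SE 0.40), and swa, also an RNA localisation gene, at -1.86 (SE 0.59). The SE of 13 of the 14 was above the median of genes of like mean, and the median percentile was 98.0, against 93.0 for the 10 piRNA genes. Summed over the list, the germline markers had a deposited mean of 2058 and the 10 piRNA genes one of 340, and the lowest germline marker was not at 0. Follicle cell markers were present too, at a summed mean of 3280 over 15 genes. Of the 10 with an adjusted p, 0 were called positive and 6 negative (0 and 8 at an unadjusted DESeq2 p under 0.05), with a median log2 fold change of -3.56. The vitelline membrane genes Vm34Ca and Vm26Aa stood at -6.76 (SE 1.46) and -4.79 (SE 1.27), the chorion gene Cp15 at -3.95 (SE 0.85), and tj, a transcription factor gene of somatic gonad cells, at -1.96 (SE 0.35), all in the authors' deposited table. The other chorion genes were mixed, and none of them was called. Cp7Fa stood at 0.53 (SE 0.60). The rest had neither an unadjusted nor an adjusted p, so they could not be called and stay out of the median. They are Cp38 at 2.81 (SE 2.34), Cp36 at 2.36 (SE 1.75), Cp19 at 1.49 (SE 2.74), Cp16 at 0.05 (SE 2.92) and Cp18 at -2.52 (SE 1.04). An unadjusted p was present for 13194 of the 13234 genes, and why these lack one is not stated. Their fold changes may rest on few libraries, which was not tested. Most of the germline and follicle cell markers lie on the same side as the piRNA genes, and the part of ovary RNA in the piRNA gene values was not tested. In bulk tissue, fewer cells of a type and less RNA per cell cannot be told apart.

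Markers of muscle, nerve and blood cells were called on the positive side or not at all, with 27.0% of all tested genes called there. Of 12 muscle and nerve markers, the authors' deposited table called 9 positive and 0 negative (9 and 0 at an unadjusted DESeq2 p under 0.05), with the neuronal RNA-binding gene elav at 1.69 (SE 0.16) and the myosin light chain gene Mlc2 at 1.60 (SE 0.18), and 3 were not called. Of 7 hemocyte markers, the authors' deposited table called 4 positive and 0 negative (4 and 0 at an unadjusted DESeq2 p under 0.05), with eater, a phagocytic receptor gene, at 1.01 (SE 0.17), and 3 were not called. Centred by length and mean, the hemocyte counts were 4 and 1. One of these, srp, is also on the fat body list.

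The rest of the piRNA pathway was taken from lists by role, with 38 further genes measured. Of these, the authors' deposited table called 5 positive and 8 negative, against 27.0% and 22.0% of all tested genes, and 25 were not called. Their median log2 fold change was -0.23, against -0.99 for the 10 genes. Their SE was above the median of genes of like mean in 20 of 38, close to the even division that a median gives, against 10 of 10. Their deposited means were higher, with a median of 64.4 against 30.2.

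**Figure D4:**
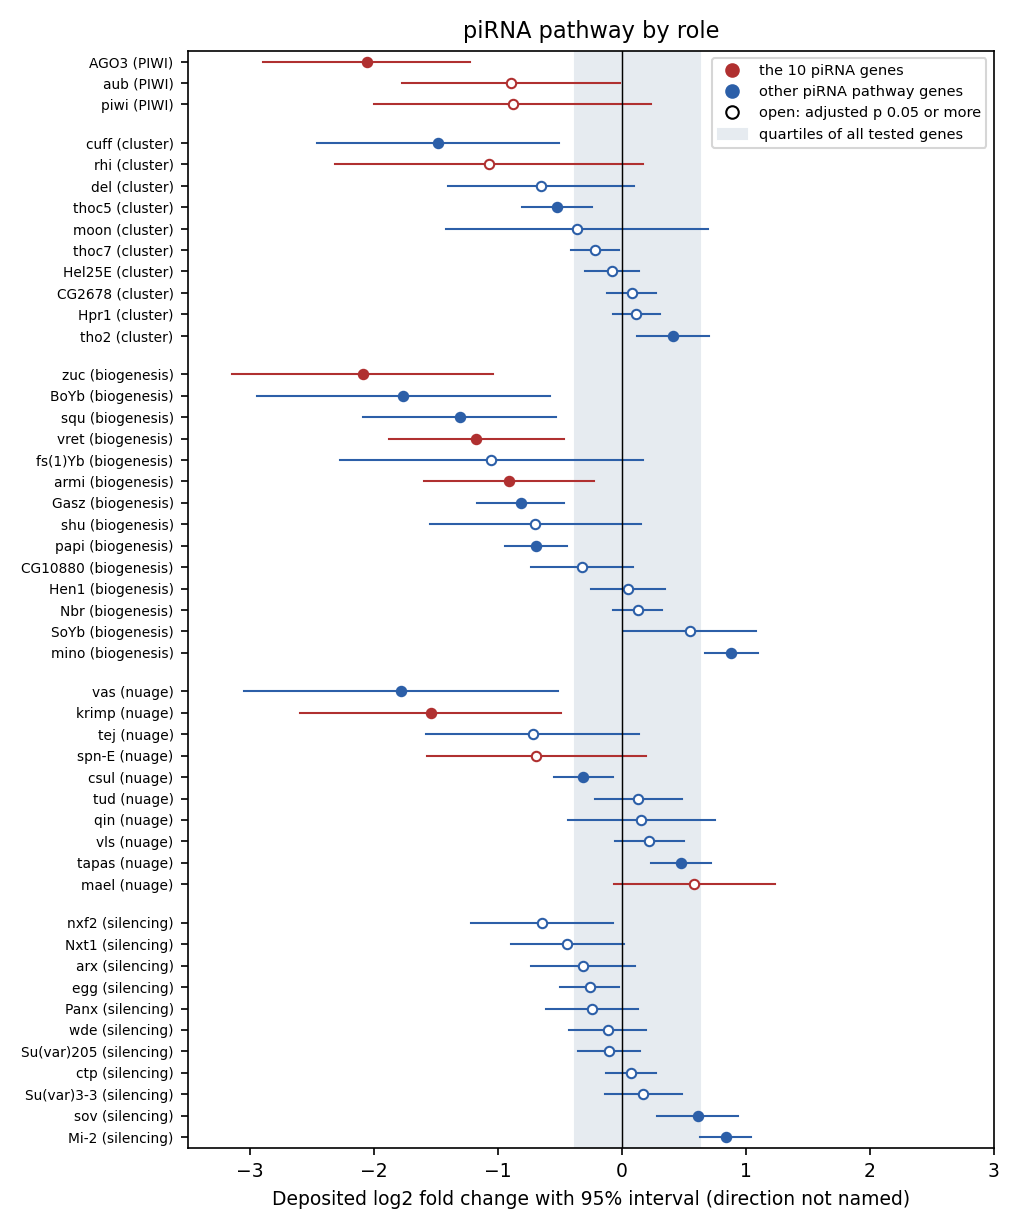
Log2 fold change with 95% interval in the authors' deposited table (x axis; direction not named) for 48 piRNA pathway genes (y axis, by role: PIWI proteins, cluster transcription and export, biogenesis, nuage, nuclear silencing). Filled points have an adjusted p under 0.05; in the biogenesis group 1 gene is called positive and 7 negative, and in the silencing group 2 are called positive and 0 negative, which becomes 1 and 2 when fold changes are centred by length and mean. The band spans the quartiles of all tested genes.

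Of the 11 other biogenesis genes, 1 was called positive and 4 negative, and 2 and 4 had an unadjusted DESeq2 p under 0.05. Over all genes tested, 27.0% were called positive and 22.0% negative. The mitochondrial scaffold gene Gasz stood at -0.82 (SE 0.18) and the Tudor gene papi at -0.69 (SE 0.13) in the authors' deposited table, both with an SE below the median of genes of like mean. The positive one was mino, a mitochondrial outer membrane acyltransferase gene, at 0.88 (SE 0.11) and a deposited mean of 2427, the highest of the whole pathway list in the authors' deposited table. Zuc and mino, whose products both act at the mitochondrial surface, thus lay on opposite sides.

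Genes of nuage beyond the 10 were mixed, with 1 called positive and 2 negative of 7, against 27.0% and 22.0% of all tested genes. The DEAD-box helicase gene vas, a classical germline marker, stood at -1.78 (SE 0.65, adjusted p = 0.0146) in the authors' deposited table, and its SE lay at percentile 97.3. In the authors' deposited table the methyltransferase gene csul stood at -0.31 (SE 0.12) and the Tudor gene tapas at 0.48 (SE 0.12). Of the 9 cluster transcription and export genes other than rhi, 1 was called positive and 2 negative. With rhi included and fold changes centred by length and mean, 0 were called positive and 2 negative. Cutoff, a partner of Rhino encoded by cuff, was the lowest at -1.48 (SE 0.50, adjusted p = 0.00775) in the authors' deposited table, at a mean of 3.46. The THO complex genes thoc5, at -0.53 (SE 0.14), and tho2, at 0.41 (SE 0.15), lay on opposite sides in that authors' deposited table.

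In the nuclear silencing group, which acts with Piwi on chromatin, 2 of 11 were called positive and 0 negative, against 27.0% and 22.0% of all tested genes. At an unadjusted DESeq2 p under 0.05 these counts were 2 and 2. The split was not stable: it was 1 positive and 2 negative with fold changes centred by length and mean, and 2 and 1 when p-values were adjusted over genes with a mean of at least 10. In the authors' deposited table these were the chromatin remodeller gene Mi-2 at 0.84 (SE 0.11) and the zinc-finger gene sov at 0.61 (SE 0.17). The group's median was -0.12, and the SE of 7 of the 11 was above the median of genes of like mean.

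The miRNA and siRNA pathways, which use Argonaute proteins of the other clade, gave 2 positive and 3 negative calls of 11. The shares over all tested genes were 27.0% and 22.0%. The median log2 fold change of the 11 was -0.14. Centred by length and mean, the counts were 1 and 4. In the authors' deposited table the siRNA-producing Dicer gene Dcr-2 stood at 0.74 (SE 0.14) and its partner gene r2d2 at -0.32 (SE 0.07). The effector gene gw stood at 0.35 (SE 0.10), and loqs, which encodes a Dicer partner, at -0.45 (SE 0.13), in the authors' deposited table. All 11 fold changes lay between -0.45 and 0.74, and 5 of the 11 SEs were above the median of genes of like mean. These genes had a median deposited mean of 228, well above the 30.2 of the piRNA genes.

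The exons of 6 of the 10 genes touch those of another annotated gene, and the sources used here do not give the strand setting of the counting, so reads there cannot be assigned. For armi the overlap is nearly whole: CG46463, on the same strand, shares 99.6% of the exonic bases of armi (FBgn0041164, 3L from 3461317 to 3466314), and the authors' deposited table has a row for armi alone. The value of armi may therefore include reads of both. For vret (FBgn0263143, 3R from 22742954 to 22745581) 128 bp are shared with CG6985 on the opposite strand, which stood at -2.22 (SE 0.29) in the authors' deposited table. For zuc (FBgn0261266, 2L from 11988735 to 11989882), which has 1 exon, 67 bp are shared with CG34163 on the opposite strand, at -1.33 (SE 0.23) in the authors' deposited table. Both partners were called on the side of vret and zuc, with higher means of 18.4 for CG6985 and 64.8 for CG34163. Exons of a gene on the opposite strand are also shared by 3 further genes, joining piwi to SCAR over 191 bp, aub to TTLL4A over 79 bp and mael mainly to CG14451 over 246 bp. SCAR stood at 0.29 (SE 0.06) in the authors' deposited table, on the other side from piwi, at a mean of 348. The exons of AGO3, rhi, krimp and spn-E touch none of another gene other than the INE-1 copy in AGO3.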

How the data were processed

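RNA of 24 fat body libraries was measured, and groups were taken from the titles in the labels. Per the submitters' processing notes, DESeq2, Bowtie2, Trim Galore, cutadapt, SAMtools, Picard and FastQC were run on build dm6. Versions, read counter and annotation: not given in the sources used here. Per the file headers, the authors deposited for each gene a mean of normalised counts (signal), a log2 fold change and SE on the log2 scale, a test statistic (score) and a raw and adjusted p-value. The values were checked: the statistic is fold change over SE, and adjustment was Benjamini-Hochberg over 11399 of 13234 genes. The other 1835 genes stay out of counts.

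Intervals, percentiles, counts by list and levels per length (longest Ensembl transcript; 99.7% of tested genes matched) were computed with Python 3.11.15, pandas 2.3.3 and scipy 1.17.1, and recomputed adjustments were tested on simulated data. The test of groups planned for values per library was not run, since the table has none, nor was a promoter motif search, for want of sequences. Named genes are the 10 members and, from every other list, genes among the up to 4 called ones of smallest adjusted p. Where none was called, the 2 of highest mean were to be taken. Some genes that met this rule are not described, among them bru1, Prm, para, NimC1 and Pxn. Genes outside this rule were picked with values in view. They are bgcn, otu, zpg, Fbp1, apolpp, FASN1, the chorion genes other than Cp15 and genes named for their position. Members and lists were chosen with earlier results of these data known. Of the listed genes, boot and cup were not analysed here. Alternatives were a stricter threshold, adjustment over all genes or over those with a mean of at least 10, a t distribution with 20 degrees of freedom, and centring of fold changes on the median gene or within 10 bins of mean and 10 of length in each. Nothing states that libraries came from separate cultures of flies, so p-values measure the spread between these libraries.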

Additional observations from a re-analysis of the deposited data

How the results depend on the processing

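The count of 5 called piRNA genes stayed within 1.5 times under all alternatives but 1, and no fold change of the 10 genes changed sign. Only the alternatives that centre fold changes could have changed a sign, since the others keep the deposited fold change. At an adjusted p under 0.01, 3 remained (AGO3, zuc and vret), with armi at 0.0214 and krimp at 0.0107. The 10 nuage genes, with krimp, spn-E and mael among them, then gave 1 positive and 0 negative calls, against 1 and 3 at 0.05. The 14 germline markers gave 0 positive and 3 negative, against 1 and 8 at 0.05. Shares over all tested genes were not computed for the alternative settings. With fold changes centred by length and mean, spn-E passed at an adjusted p of 0.0177 (log2 fold change -1.24), for 6 called piRNA genes. In that setting 7 of the 10 nuage genes were called, 2 positive and 5 negative. Over genes with a mean of at least 10, rhi and zuc were not tested and 4 of 8 were called. The median log2 fold change of the 10 genes lay between -1.34 and -0.90 over these settings. Of 130 alternative values in all, 123 kept their side of the threshold or stayed within 1.5 times. Counts were judged by their total alone, so a changed split by sign could pass. Nuclear silencing passed in this way, going from 2 positive and 0 negative to 1 and 2 when centred by length and mean. No paired analysis was possible because the table holds no value per library, and leave-one-out fits could not be run for the same reason. The size of the deposited SE limits what can be called among the piRNA genes. An unadjusted DESeq2 p of 0.05 needs a log2 fold change of at least 0.65 in size for mael and 1.24 for rhi.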
